A study of Mus musculus with 10 samples.

Results

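The Notch receptors Notch1, Notch2 and Notch3, the ligands Dll1, Dll4, Jag1 and Jag2, and the Hes genes Hes1, Hes5 and Hes6 were examined in intestinal epithelial cells (IECs) of RhoB-/- and WT mice. These 10 genes were picked by name from the 55487 genes of the table, with no threshold on their values. RhoB is a small GTPase, and the study asked what its loss does to the colon epithelium. IECs were released from the colon of 5 WT and 5 RhoB-/- mice of the C57BL/6J strain, and RNA of each was sequenced. The labels name no further treatment, age or sex. The methods give a general age range for the mice of the study, and none separately for those used for IECs. According to the methods, the RhoB-/- mice were generated at a Shanghai centre and WT male mice were purchased from another supplier. The source of the WT mice used for IECs is not given separately, so genotype and colony cannot be told apart. The labels number the samples of each group 1 to 5 and say no more of their origin, so a p-value here measures the spread between those samples.

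In Notch signalling, a Delta or Jagged ligand on one cell binds a Notch receptor on its neighbour, the receptor is cleaved, and its intracellular part enters the nucleus. There it joins the DNA-binding protein Rbpj and a Mastermind protein and switches on target genes such as Hes1, a transcriptional repressor. In the intestinal epithelium this signal is known to keep crypt progenitors dividing and to hold down Atoh1, the factor that commits cells to the secretory lineages, and the Delta ligands are known to be carried by secretory cells. Hes6 is a relative of Hes1 that is known to oppose it, and it is often found in secretory progenitors.

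Expression is given as TPM, a relative measure of transcript number that is scaled to the length of each gene and to the total of each library, so levels of different genes can be set side by side. The sequencing depth cannot be read from TPM, so how many reads stand behind a value is unknown. Between 20261 and 21344 genes had a TPM above 0 per library. Genotypes were compared with limma on the log2(TPM + 1) scale for the 12870 genes whose mean TPM reached 1, and p-values were adjusted over all of them by the Benjamini-Hochberg method. Fold changes on this scale are pulled towards 0 for weakly expressed genes. In bulk RNA, fewer cells of a type and less RNA per cell cannot be told apart. Over all tested genes the log2 fold change had a median of -0.13, so the fold changes of the genes that were called are also given relative to this median.

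The deleted gene, Rhob, had a TPM of 170.5 to 388.7 in the WT libraries. It was 0.09, 0.10, 0.35 and 0.57 in RhoB-/- replicates 1 to 4, and 110.9 in the library labelled RhoB-/- replicate 5. That library therefore went against its label in part, and it was kept in its labelled group, and results are given again without it below. The share of TPM from mitochondrially encoded genes was 17.5% to 26.5% in WT libraries against 10.3% to 22.4% in RhoB-/- libraries, lowest in RhoB-/- replicate 3.

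Of the 10 genes, 7 passed the filter and 4 of them fell in RhoB-/- IECs at an adjusted p below 0.05, namely Hes6, Hes1, Notch1 and Jag1. None rose. Over all tested genes, 13.5% were called lower, 7.73% higher and 21.2% in either direction. The 7 tested genes all had negative log2 fold changes, with a median of -0.49 beside -0.13 for all tested genes. Hes6 alone had every RhoB-/- library below every WT library, which held for 8.55% of all tested genes, and none of the 7 had every RhoB-/- library above, which held for 5.97%. Notch2, Notch3 and Hes5 had a mean TPM below 1 and were compared by exact permutation tests.

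**Figure D1:**
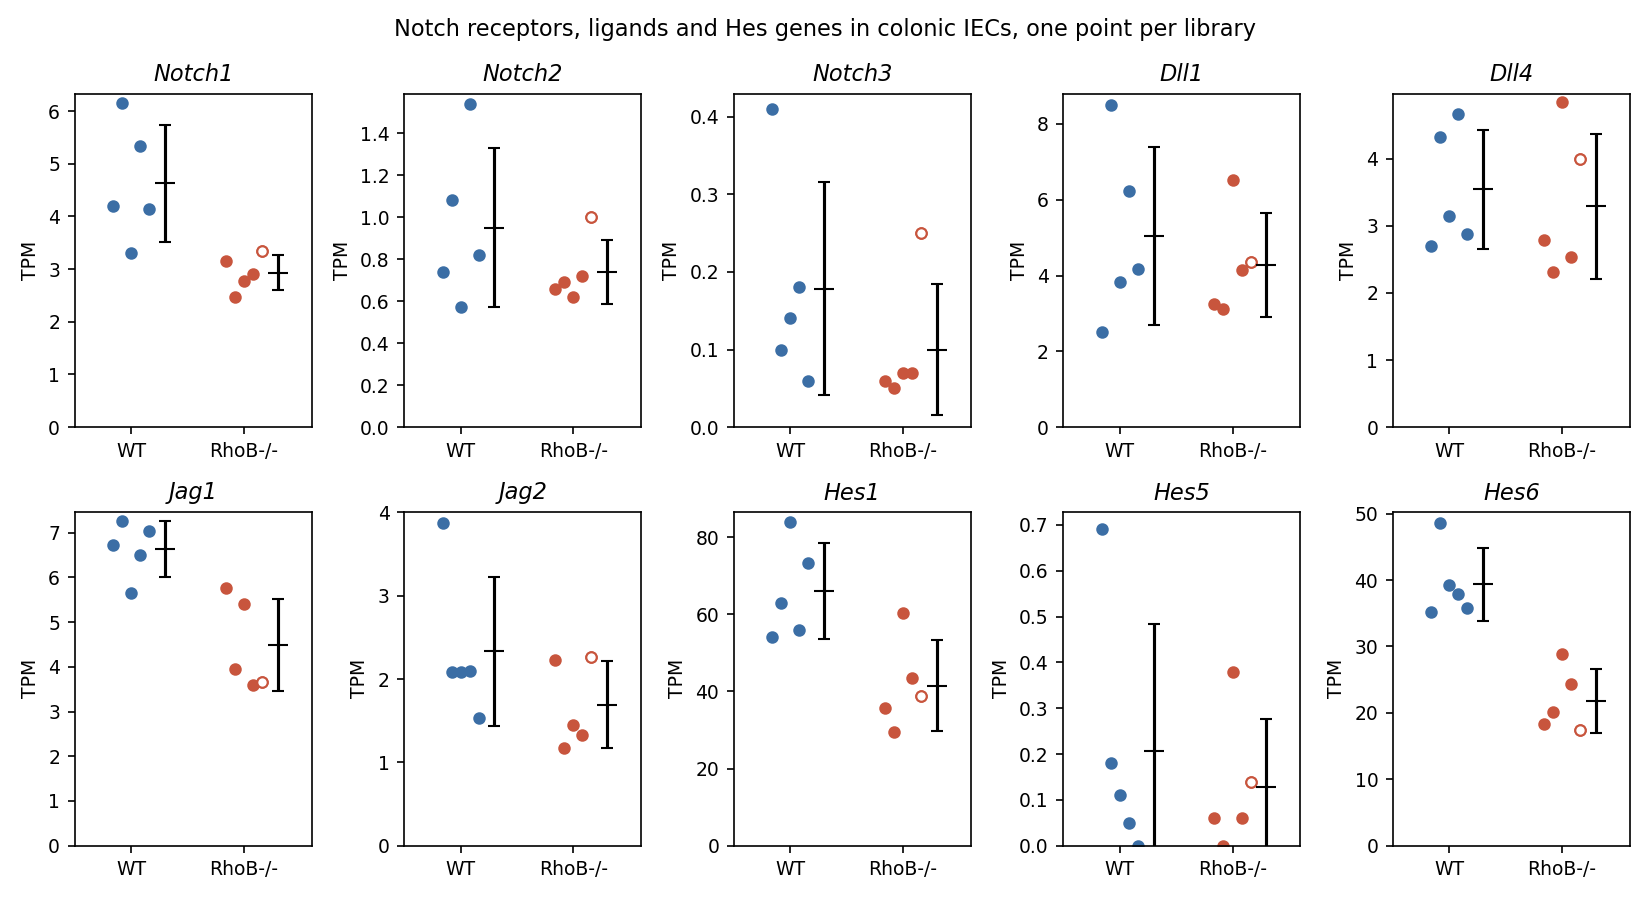
TPM of the 10 genes in each library, with the mean and SD of each group (n = 5) beside the points; the open circle is RhoB-/- replicate 5, the library with a Rhob TPM of 110.9, and SD bars end at 0. The Hes6 groups do not overlap, while those of Hes1, Notch1 and Jag1 overlap at their edges.

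Promoter sequences of the genes were read from RefSeq on GRCm38.p6, as windows of 300 bases around the transcription start. Of the 10 genes, 9 had an entry, in 11 windows, and Hes1 was not in the table used. Both strands were searched for TGGGAA, the core letters that Rbpj is known to bind, and for CACNAG, the N box that Hes repressors are known to bind. None of the 11 windows held both motifs, so no match of one could overlap a match of the other. TGGGAA was present in 25.6% of all 32851 promoter windows and CACNAG in 42.5%.

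3 windows are printed, that of Hes5 because it was the only one of the 11 with TGGGAA, and the second window of Hes6 and that of Notch1 because these genes fell and hold N box letters. Capitals mark the matches, which read in reverse complement where they lie on the other strand. The Hes5 window lies at chr4:154960673-154960972 on the plus strand, the Hes6 window at chr1:91413173-91413472 on the minus strand and the Notch1 window at chr2:26503773-26504072 on the minus strand.
Hes5: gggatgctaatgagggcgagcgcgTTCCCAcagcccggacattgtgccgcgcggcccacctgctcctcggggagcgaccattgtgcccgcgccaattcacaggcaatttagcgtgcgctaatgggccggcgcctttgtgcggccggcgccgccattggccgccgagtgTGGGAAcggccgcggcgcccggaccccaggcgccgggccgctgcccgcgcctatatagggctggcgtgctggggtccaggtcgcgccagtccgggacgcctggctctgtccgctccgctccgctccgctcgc
Hes6: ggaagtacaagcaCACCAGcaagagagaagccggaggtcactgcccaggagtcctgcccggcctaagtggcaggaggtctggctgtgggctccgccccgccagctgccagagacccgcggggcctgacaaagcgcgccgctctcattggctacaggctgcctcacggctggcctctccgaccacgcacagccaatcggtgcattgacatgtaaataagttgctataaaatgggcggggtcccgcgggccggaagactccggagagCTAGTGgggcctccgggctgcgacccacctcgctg
Notch1: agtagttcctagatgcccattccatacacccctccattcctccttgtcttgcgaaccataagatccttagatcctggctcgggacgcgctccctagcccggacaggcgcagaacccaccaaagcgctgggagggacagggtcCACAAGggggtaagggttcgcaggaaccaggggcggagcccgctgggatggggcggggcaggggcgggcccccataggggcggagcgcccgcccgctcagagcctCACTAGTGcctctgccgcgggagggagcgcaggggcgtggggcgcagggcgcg

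The Hes5 window held 2 matches to TGGGAA, on opposite strands and with 138 bases between them, and none to CACNAG. The Hes6 window held 2 matches to CACNAG, starting at positions -237 and 15 relative to the transcription start, and the first Hes6 window held none of either motif. The Notch1 window held 3, of which those at -3 and -1 are the palindromic CACTAGTG read on each strand. Of the other windows, Notch3 held 2 matches to CACNAG, Notch2, Dll4 and the second Dll1 window held 1 each, and Jag1, Jag2 and the first Dll1 window held none. A match is a run of letters and not a measured binding site.

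Among the receptors, Notch1 was the most abundant and fell in RhoB-/- IECs. Notch1 (ENSMUSG00000026923) spans 26457903 to 26516663 on the minus strand of chromosome 2, with 34 exons in its longest transcript. Its TPM was 4.20, 6.15, 3.31, 5.34 and 4.14 in WT replicates 1 to 5 against 3.15, 2.48, 2.78, 2.91 and 3.34 in RhoB-/- replicates 1 to 5. RhoB-/- replicates 1 to 4 lay below all WT libraries and RhoB-/- replicate 5 lay just above the lowest WT library, replicate 3. The mean was 4.63 ± 1.12 in WT against 2.93 ± 0.332 in RhoB-/- mice (SD, n = 5 each), which is 36.6% lower. The log2 fold change of Notch1 was -0.50 (SE 0.15, 95% interval -0.82 to -0.18, limma adjusted p = 0.0334), or -0.37 relative to the median of all tested genes. Without RhoB-/- replicate 5 the Notch1 fold change was -0.54 with a limma adjusted p of 0.0478. The Notch1 call was lost in 9 of 18 alternatives, and its sign held in all 18. Among the 9 were WT replicate 2, 4 or 5 or RhoB-/- replicate 1, 2 or 4 left out, with limma adjusted p-values of 0.0515 to 0.0877.

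Notch2 (ENSMUSG00000027878), a broadly expressed receptor at 98013527 to 98150361 on the plus strand of chromosome 3, had a TPM of 0.74, 1.08, 0.57, 1.54 and 0.82 in WT against 0.66, 0.69, 0.62, 0.72 and 1 in RhoB-/- replicates 1 to 5. The RhoB-/- values lay within the WT range. The means of Notch2 were 0.95 ± 0.378 and 0.738 ± 0.151 (SD, n = 5 each), with a two-sided exact permutation p of 0.286, and of 0.214 without RhoB-/- replicate 5. Notch3 (ENSMUSG00000038146), a receptor known from mural cells and at 32120820 to 32166852 on the minus strand of chromosome 17, was close to 0. Its TPM was 0.41, 0.10, 0.14, 0.18 and 0.06 in WT against 0.06, 0.05, 0.07, 0.07 and 0.25 in RhoB-/- replicates 1 to 5, with an exact permutation p of 0.357, and of 0.0794 without RhoB-/- replicate 5. The Notch3 groups overlapped, and WT replicate 1 and RhoB-/- replicate 5 stood highest. Notch4, the remaining receptor, had a TPM of 1.84 ± 0.535 in WT against 1.41 ± 0.551 in RhoB-/- mice (SD, n = 5 each, log2 fold change -0.24, limma adjusted p = 0.406). Notch1 made up 57.7% to 64.7% of the summed TPM of Notch1 to Notch4 in WT libraries against 48.0% to 65.9% in RhoB-/- libraries, so its share overlapped between genotypes. The summed TPM of Notch1, Notch2 and Notch3 ranged from 4.02 to 7.33 in WT and from 3.22 to 4.59 in RhoB-/- libraries.

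Among the ligands, Jag1 was lower in RhoB-/- IECs, and no difference was detected for Dll1, Dll4 or Jag2. Jag1 (ENSMUSG00000027276) lies at 137081456 to 137116644 on the minus strand of chromosome 2, with 26 exons. Its TPM was 6.73, 7.27, 5.66, 6.49 and 7.03 in WT against 5.76, 3.96, 5.41, 3.60 and 3.66 in RhoB-/- replicates 1 to 5. RhoB-/- replicate 1 lay above the lowest WT library, replicate 3, and the other 4 RhoB-/- libraries lay below all WT libraries. The mean Jag1 TPM was 6.64 ± 0.620 in WT against 4.48 ± 1.03 in RhoB-/- mice (SD, n = 5 each), 32.5% lower. The log2 fold change was -0.49 (SE 0.14, 95% interval -0.79 to -0.20, limma adjusted p = 0.0246), or -0.37 relative to the median of all tested genes. Without RhoB-/- replicate 5 the Jag1 call was lost (log2 fold change -0.44, limma adjusted p = 0.0601), as it was in 9 of 18 alternatives, with the sign kept in all 18. It was also lost without WT replicate 2, 4 or 5 or RhoB-/- replicate 4, at limma adjusted p-values of 0.0537 to 0.0612.

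Dll1 (ENSMUSG00000014773), a Delta ligand of secretory cells at 15367354 to 15376872 on the minus strand of chromosome 17, was spread widely among the WT libraries. Its TPM was 2.50, 8.50, 3.83, 6.23 and 4.18 in WT against 3.25, 3.12, 6.53, 4.14 and 4.36 in RhoB-/- replicates 1 to 5. All RhoB-/- values of Dll1 lay inside the WT range, and RhoB-/- replicate 3 was the highest of its group. Dll1 had a log2 fold change of -0.15 (SE 0.26, 95% interval -0.70 to 0.41, limma adjusted p = 0.709), and it turned to 0.04 after quantile normalization and without WT replicate 2.

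Dll4 (ENSMUSG00000027314), the other Delta ligand measured, lies at 119325784 to 119335962 on the plus strand of chromosome 2. Its TPM was 2.70, 4.33, 3.14, 4.66 and 2.88 in WT against 2.79, 2.31, 4.84, 2.54 and 3.99 in RhoB-/- replicates 1 to 5, again highest in RhoB-/- replicate 3. The groups overlapped over nearly the whole range. Dll4 had a log2 fold change of -0.09 (SE 0.19, 95% interval -0.51 to 0.32, limma adjusted p = 0.749), and it turned to 0.08 after quantile normalization and to 0.02 when each library was centred.

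Jag2 (ENSMUSG00000002799), a second Jagged ligand, lies at 112907819 to 112929776 on the minus strand of chromosome 12. Its TPM was 3.87, 2.08, 2.08, 2.10 and 1.53 in WT against 2.23, 1.17, 1.45, 1.33 and 2.27 in RhoB-/- replicates 1 to 5. WT replicate 1 stood far above the rest of its group, and 3 of 5 RhoB-/- libraries lay below the lowest WT library. Jag2 had a log2 fold change of -0.29 (SE 0.20, 95% interval -0.73 to 0.14, limma adjusted p = 0.312). Dll3 was near 0, with a mean TPM of 0.0520 in WT against 0.0540 in RhoB-/- mice. Of the summed TPM of Dll1, Dll4, Jag1 and Jag2, Jag1 made up 32.8% to 45.0% in WT against 25.6% to 41.1% in RhoB-/- libraries, and Dll1 15.8% to 38.3% and 23.2% to 35.8%. The ligand shares overlapped between genotypes, as did the sum itself, at 14.7 to 22.2 in WT against 10.6 to 18.2 in RhoB-/- libraries.

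Hes6 fell most of the 7 tested genes, and Hes1 fell next. Hes6 (ENSMUSG00000067071) lies at 91411483 to 91414038 on the minus strand of chromosome 1 and has 3 exons in its longest transcript. Its TPM was 35.2, 48.7, 39.2, 37.8 and 35.8 in WT against 18.4, 20.1, 28.9, 24.3 and 17.4 in RhoB-/- replicates 1 to 5. The highest RhoB-/- library, replicate 3, lay below the lowest WT library. The mean was 39.3 ± 5.45 in WT against 21.8 ± 4.76 in RhoB-/- mice (SD, n = 5 each), 44.6% lower. The log2 fold change of Hes6 was -0.84 (SE 0.15, 95% interval -1.16 to -0.52, limma adjusted p = 0.00255), or -0.71 relative to the median of all tested genes. A two-sided exact permutation test of Hes6 over the libraries gave 0.00794, the smallest p that 5 against 5 allows. Hes6 stayed past the threshold in all 18 alternatives, and its fold change without RhoB-/- replicate 5 was -0.77 (limma adjusted p = 0.00761).

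Hes1 (ENSMUSG00000022528), at 30064384 to 30067796 on the plus strand of chromosome 16, was the most abundant of the 10 genes in both genotypes. Its TPM was 54.2, 63.0, 83.8, 56.0 and 73.4 in WT against 35.7, 29.4, 60.4, 43.5 and 38.7 in RhoB-/- replicates 1 to 5. RhoB-/- replicate 3 lay above WT replicates 1 and 4, and the other 4 RhoB-/- libraries lay below all WT libraries. The mean Hes1 TPM was 66.1 ± 12.5 in WT against 41.5 ± 11.7 in RhoB-/- mice (SD, n = 5 each), 37.2% lower. The log2 fold change was -0.68 (SE 0.18, 95% interval -1.08 to -0.28, limma adjusted p = 0.0234), or -0.55 relative to the median of all tested genes. Without RhoB-/- replicate 5 the Hes1 value was -0.66 with a limma adjusted p of 0.0518, and the call was also lost without WT replicate 5 (0.0530), without RhoB-/- replicate 1 (0.0584) and with no filter on TPM (0.0578).

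Hes5 (ENSMUSG00000048001), a Hes repressor best known from neural progenitors and located at 154960923 to 154962371 on the plus strand of chromosome 4, was close to 0. Its TPM was 0.69, 0.18, 0.11, 0.05 and 0 in WT against 0.06, 0, 0.38, 0.06 and 0.14 in RhoB-/- replicates 1 to 5. The Hes5 groups overlapped and each held a library listed at 0 (exact permutation p = 0.659, and 0.706 without RhoB-/- replicate 5). Hes6 made up 31.9% to 43.6% of the summed TPM of Hes1 and Hes6 in WT against 31.0% to 40.6% in RhoB-/- libraries, an overlap. The summed TPM of the 3 Hes genes was 90.0 to 123.1 in WT against 49.5 to 89.7 in RhoB-/- libraries, so the groups were apart by little at their nearest libraries.

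**Figure D2:**
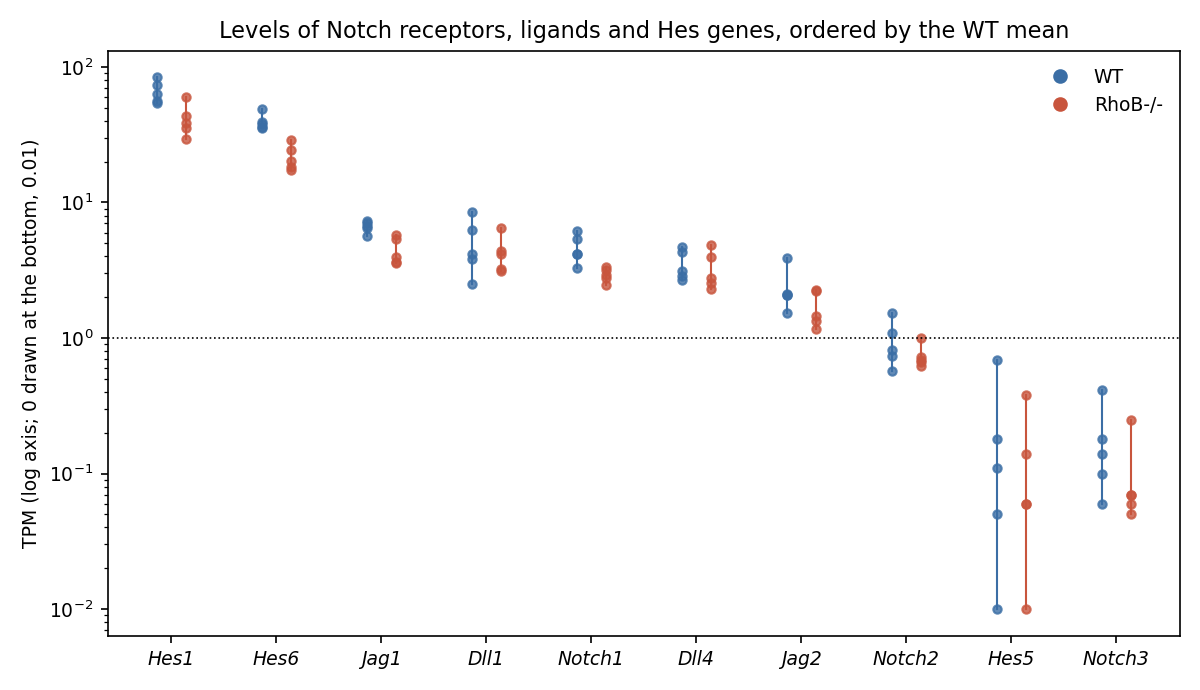
TPM (log axis) of the 10 genes, ordered by the WT mean, with a point per library, a line over the range of each group, the filter of 1 TPM dotted, and values of 0 drawn at the bottom. Hes1 and Hes6 stand above the ligands and receptors in both genotypes.

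In WT mice the order of mean levels was Hes1, Hes6, Jag1, Dll1, Notch1, Dll4, Jag2, Notch2, Hes5 and Notch3. Hes1 had a higher mean TPM than 87.2% of all tested genes, Hes6 than 79.5%, Jag1 than 33.9% and Notch1 than 25.4%. The WT ranges of neighbours in this order overlapped, except between Hes1 and Hes6 and between Hes6 and Jag1. In RhoB-/- mice Dll4 and Notch1 changed places, with overlapping ranges, and the rest of the order was the same. WT replicate 2 had the highest WT values of Notch1, Dll1, Jag1 and Hes6, and RhoB-/- replicate 3 had the highest RhoB-/- values of Dll1, Dll4, Hes1 and Hes6.

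For the 3 most abundant genes, the tested genes with the most similar pattern over the 10 libraries were found after the genotype means had been subtracted. These were Snhg1 (r = 0.979), Atp5e (0.972) and Rps20 (0.971) for Hes1, Nans (0.965), Aven (0.955) and Gm11027 (0.948) for Hes6, and Sting1 (0.925), Tnfsf13 (0.910) and Tmem39a (0.902) for Jag1. These are Pearson correlations picked as the highest of 12870 genes, and they are given as a description.

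Of 54 other genes of the Notch pathway, named in a list made for this purpose, 41 passed the filter, 5 fell and 2 rose, with a median log2 fold change of -0.03. The shares over all tested genes were 13.5% lower, 7.73% higher and 21.2% in either direction, so this list was called no more often than tested genes in general. In the nuclear complex, Maml3, a Mastermind coactivator, had a TPM of 2.93, 4.39, 3.10, 4.26 and 3.02 in WT against 1.89, 1.88, 1.87, 1.58 and 1.63 in RhoB-/- replicates 1 to 5. All RhoB-/- libraries lay below all WT libraries, with a log2 fold change of Maml3 of -0.70 (SE 0.14, limma adjusted p = 0.00518). Rbpj, the DNA-binding partner, had a TPM of 7.82 ± 1.13 in WT against 6.21 ± 0.365 in RhoB-/- mice (SD, n = 5 each, log2 fold change -0.28, limma adjusted p = 0.0841, and 0.0187 when TPM was rescaled without mitochondrially encoded genes). Tle1, a corepressor used by Hes proteins, rose from 15.4 ± 1.35 to 21.0 ± 3.04 (SD, n = 5 each, log2 fold change 0.41, limma adjusted p = 0.0263).

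Among the targets, Nrarp, a feedback inhibitor that Notch switches on, had a TPM of 13.4, 18.6, 15.04, 18.1 and 13.9 in WT against 10.5, 6.07, 15.1, 7.16 and 9.10 in RhoB-/- replicates 1 to 5. As for Hes1, the groups of Nrarp overlapped through RhoB-/- replicate 3 alone. Its log2 fold change was -0.71 (SE 0.20, limma adjusted p = 0.0262), and the limma adjusted p was 0.0542 without RhoB-/- replicate 5 and 0.0515 to 0.0677 without WT replicate 2 or 4 or RhoB-/- replicate 2 or 4. Hes2, a further Hes relative, fell from 2.91 ± 0.700 to 1.42 ± 0.375 without overlap (SD, n = 5 each, log2 fold change -0.68, limma adjusted p = 0.0162). The Hey targets were near 0, with mean TPM in WT and RhoB-/- mice of 0.124 and 0.0580 for Hey1, 0.0140 and 0.0300 for Hey2 and 0.0720 and 0.0480 for Heyl.

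In the ligand and receptor machinery, 3 of 22 tested genes were called, beside 21.2% of all tested genes, and the median log2 fold change was 0.09. Poglut1, which glucosylates the receptor, fell from 5.86 ± 0.970 to 3.87 ± 0.698 without overlap (SD, n = 5 each, log2 fold change -0.49, limma adjusted p = 0.0269). Dtx4, a Deltex ubiquitin ligase, fell from 3.22 ± 0.729 to 2.02 ± 0.386 (log2 fold change -0.48, limma adjusted p = 0.0479). Neurl1b, a ubiquitin ligase of ligands, rose from 7.34 ± 1.24 to 10.7 ± 2.36 (log2 fold change 0.48, limma adjusted p = 0.0385). Lfng, a glycosyltransferase that tunes ligand choice, had a log2 fold change of -0.27 (limma adjusted p = 0.203), and -0.39 without RhoB-/- replicate 3 (0.0289). Adam10, a protease that cleaves the receptor, had a log2 fold change of 0.29 (limma adjusted p = 0.116), and it passed when each library was centred (0.0131).

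**Figure D3:**
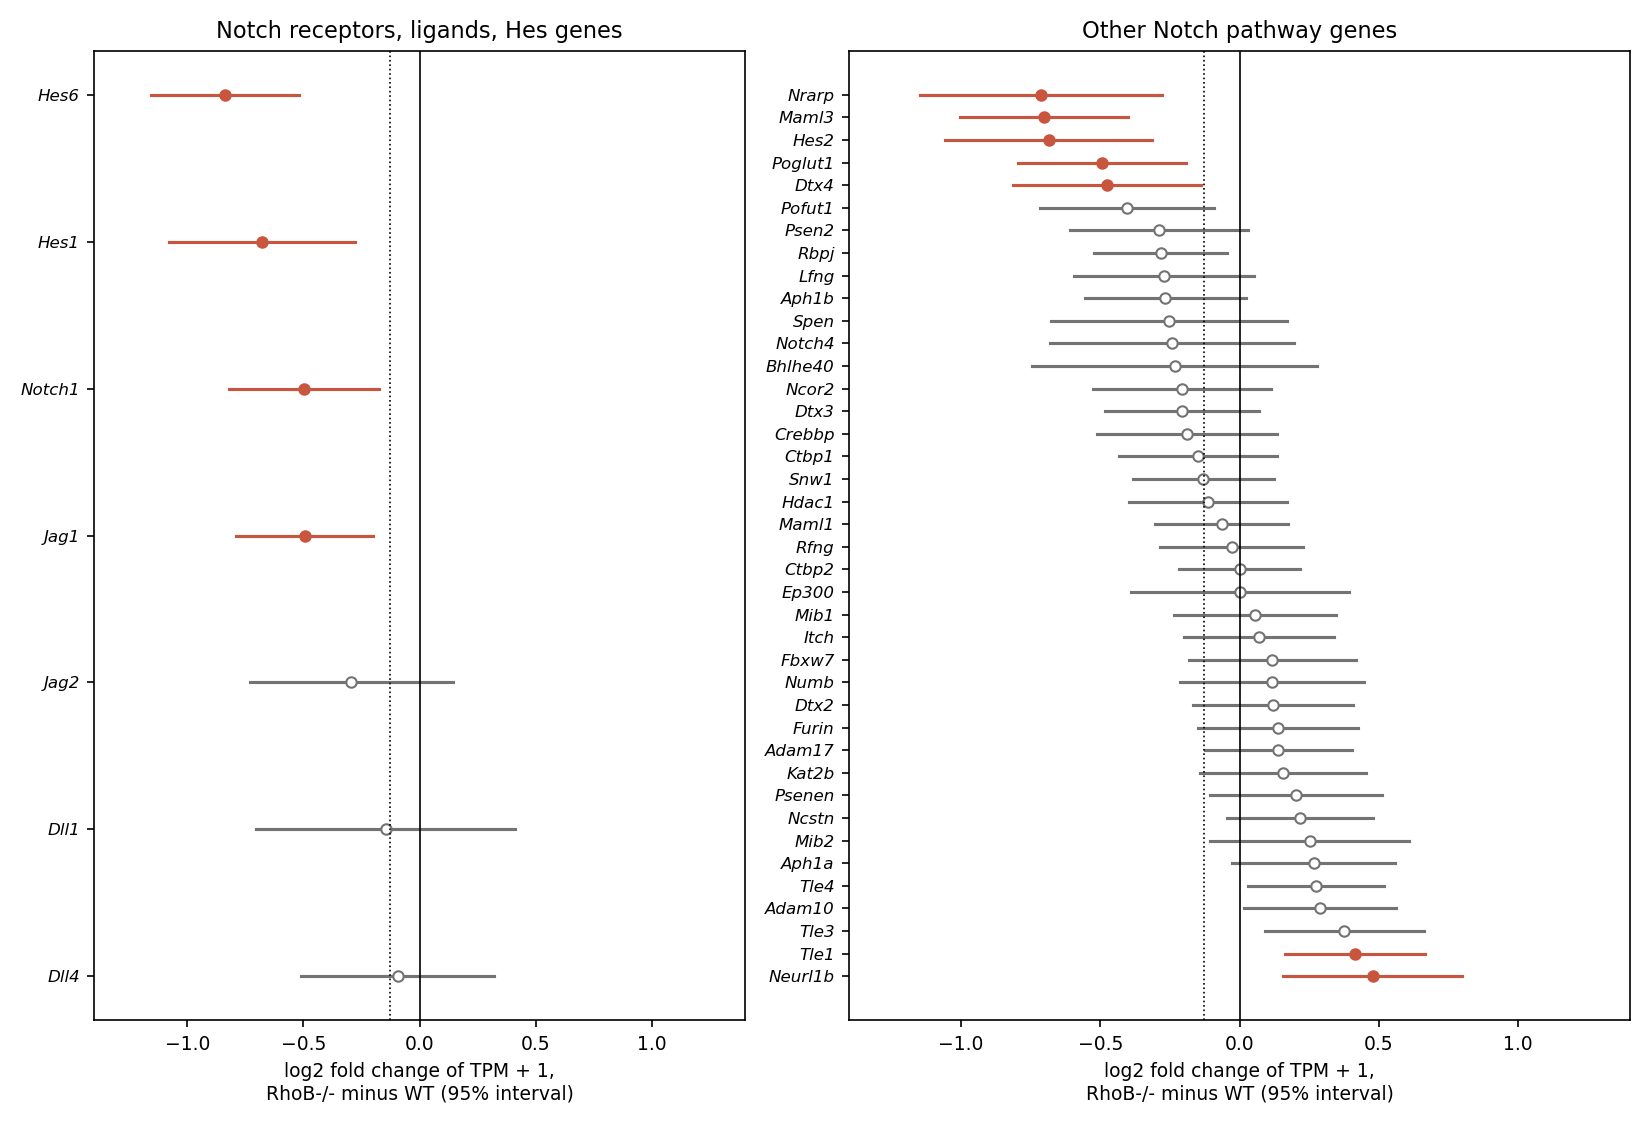
Log2 fold changes of TPM + 1 (RhoB-/- minus WT) with 95% intervals for the 7 tested receptors, ligands and Hes genes (left) and 40 of the 41 other tested Notch pathway genes (right); filled points have an adjusted p below 0.05 and the dotted line is the median of all tested genes, -0.13. Filled points of the left panel are all below 0, and the right panel has filled points on both sides.

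The direction of the pathway calls depended on the scaling and on the filter. The 2 higher and 5 lower calls became 11 and 5 when each library was centred and 8 and 4 after quantile normalization. They became 3 and 8 when TPM was rescaled without mitochondrially encoded genes. With no filter on TPM, 52 pathway genes were tested, and 3 were called higher and 2 lower. With a filter at 0.1 TPM, 47 were tested, and 3 were called higher and 4 lower. Over all tested genes the split was 995 higher and 1734 lower, and it became 2010 and 1645 with centring and 1131 and 3536 without mitochondrially encoded genes. Among the receptors, ligands and Hes genes, none was called higher under any alternative. Maml3 and Hes2 were called in all 18 alternatives, Tle1 in 13, Nrarp in 11, Poglut1 in 10, Neurl1b in 8 and Dtx4 in 6, with no change of sign. Without RhoB-/- replicate 5, 2 of the 41 pathway genes were called, Maml3 and Hes2.

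**Figure D4:**
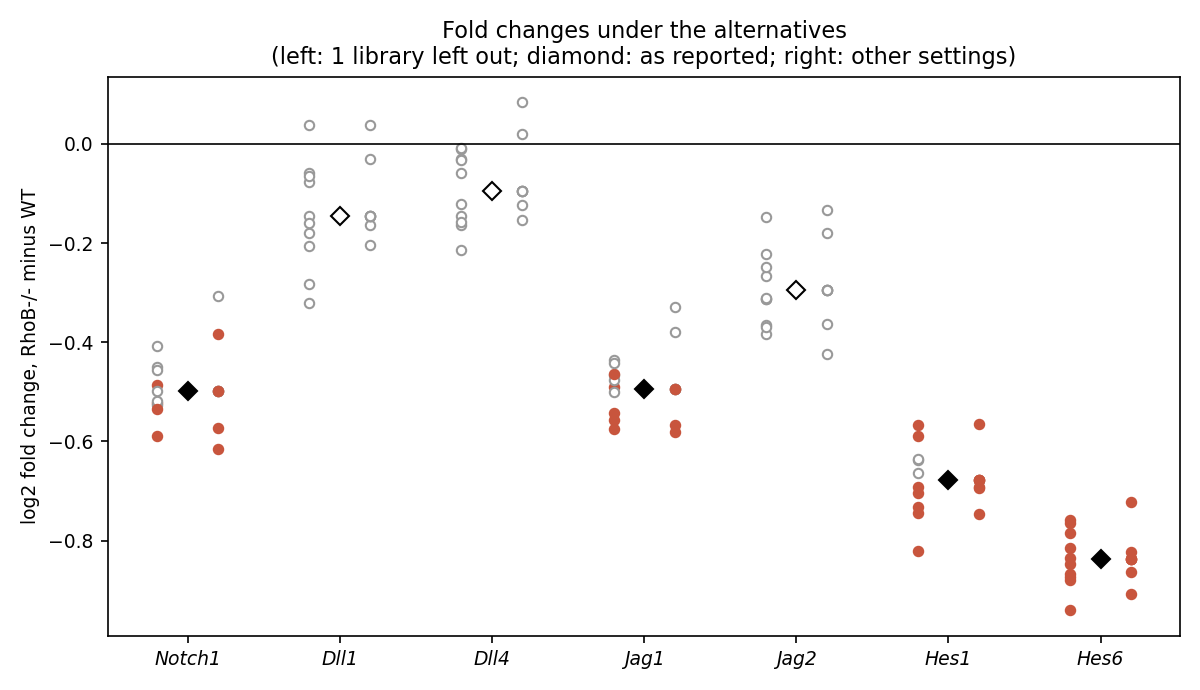
Log2 fold changes (RhoB-/- minus WT) of the 7 tested genes as reported (diamonds), with 1 library left out (left of each diamond) and under the other settings (right of it); filled symbols have an adjusted p below 0.05. Hes6 is filled throughout, and Dll1 and Dll4 cross 0.

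Atoh1, the secretory factor that Hes1 is known to repress, did not differ detectably. Its TPM was 35.7, 32.4, 24.95, 27.7 and 31.6 in WT against 28.2, 26.4, 43.7, 35.2 and 26.0 in RhoB-/- replicates 1 to 5. The groups of Atoh1 overlapped, with RhoB-/- replicate 3 highest, as for Hes1 and Hes6. The log2 fold change was 0.05 (SE 0.15, 95% interval -0.29 to 0.38, limma adjusted p = 0.853), and it turned to -0.02 without WT replicate 3 and when TPM was rescaled without mitochondrially encoded genes, and to -0.07 without RhoB-/- replicate 3. Of 23 factors of the secretory lineages, 12 were tested, 5 fell and none rose, with a median log2 fold change of -0.18. Negative log2 fold changes were found for 8 of the 12. Gfi1 (0.36, limma adjusted p = 0.112), Klf4 (0.31, 0.250) and Spdef (0.05, 0.850) went up without being called. The shares over all tested genes were 13.5% called lower and 8.55% with every RhoB-/- library below every WT library. The 5 were Sox9 (-1.16, limma adjusted p = 2.49e-04), a crypt and Paneth cell factor, Sox4 (-1.04, 1.73e-04), Foxa2 (-0.84, 0.00954), and the stress-related factors Creb3l1 (-0.76, 0.00265) and Creb3l4 (-0.67, 0.00860), each without overlap between genotypes and called in all 18 alternatives.

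Marker genes of the cells that could carry these RNAs also moved with genotype. Single markers are said to be higher or lower, or to rise or fall, at an adjusted p below 0.05. The summed TPM of 10 enteroendocrine products was 513.7 to 692.6 in WT against 267.0 to 468.8 in RhoB-/- libraries, with Chga, Chgb, Pyy, Gcg, Insl5 and Sst lower and none higher. The 15 proliferation markers summed to 424.6 to 576.5 in WT against 216.9 to 573.7 in RhoB-/- libraries, with Mki67, Mcm2, Mcm3, Mcm5 and Mcm6 lower, and RhoB-/- replicate 3 was the highest of its group here too. The 10 goblet products summed to 13979 to 16016 in WT against 20133 to 23908 in RhoB-/- libraries (Clca1, Fcgbp, Spink4, Retnlb and Ang4 higher, none called lower). The goblet products did not all go the same way. Agr2 (log2 fold change -0.59, limma adjusted p = 0.0523) and Muc2 (-0.19, 0.474) went down without being called. Among 10 colonocyte markers Car4, Aqp8, Krt20, Slc9a3 and Ceacam20 rose and none fell, at 15517 to 23378 and 18270 to 33239. Car1, which was not called (0.39, limma adjusted p = 0.203), made up most of these colonocyte sums. Its mean TPM was 12755.5 in WT against 17151.1 in RhoB-/- mice. Cyp2c55 (-0.29, 0.366) and Guca2a (-0.03, 0.890) went down without being called. Among 10 crypt stem cell markers, 9 of them tested, Prom1 rose and Smoc2, Ephb2, Ephb3 and Lrig1 fell, with sums of 199.7 to 228.8 and 200.8 to 364.7. Prom1 made up most of these sums, with a mean TPM of 119.4 in WT against 210.7 in RhoB-/- mice. Of the 9 tested stem cell markers, 7 had negative log2 fold changes. The 8 epithelial identity markers, of which Vil1, Cdx2 and Cldn7 rose, summed to 9668 to 11180 and 9331 to 14763. Without RhoB-/- replicate 5, the calls lost were Chga and Sst, Mki67, Mcm2, Mcm5 and Mcm6, Spink4, Ephb3, and Cdx2 and Cldn7. The part of these cell types in the Notch values was not tested.

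Markers of other cells that carry Notch receptors and ligands were low beside the epithelial identity markers, but not all were low beside the Notch genes. In RhoB-/- libraries the immune and fibroblast sums reached 40.3 and 40.0, and the sum of the 4 ligands reached 18.2. The 12 endothelial markers summed to a TPM of 2.80 to 3.57 in WT against 2.64 to 4.13 in RhoB-/- libraries, none passed the filter, and Erg was at 0 in all libraries. The 10 mural and smooth muscle markers summed to 3.44 to 9.53 and 3.29 to 6.06 (3 tested, none called), and the 6 enteric glia markers to 0.370 to 1.08 and 0.370 to 0.870, with Cdh19 at 0. The 14 immune markers summed to 6.34 to 15.1 in WT against 21.6 to 40.3 in RhoB-/- libraries (Ptprc, Cd3e, Cd3g and Cd8a of 6 tested higher, none lower), and the 8 fibroblast markers to 3.66 to 4.82 and 6.46 to 40.0 (Dcn of 3 tested higher, none lower). All 5 calls held without RhoB-/- replicate 5. Both sums were highest in RhoB-/- replicate 5, the library in which Notch2 and Notch3 were also highest of their group. The part of these cells in the Notch values was not tested.

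**Figure D5:**
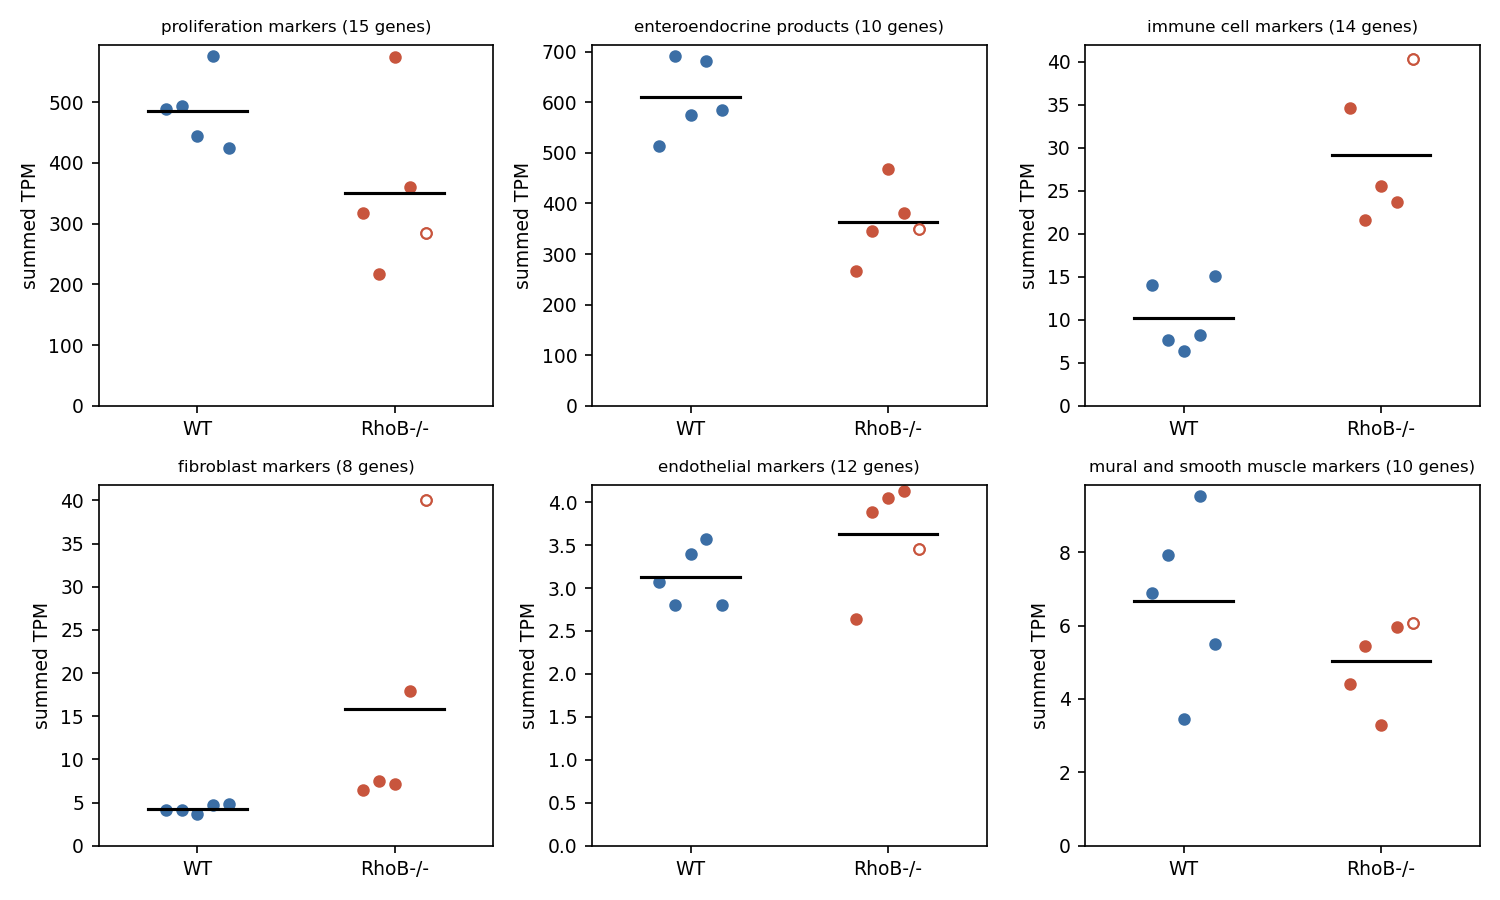
Summed TPM of 6 marker lists in each library, with the group mean as a line and RhoB-/- replicate 5 as an open circle. Enteroendocrine sums are lower and immune and fibroblast sums higher in all RhoB-/- libraries, and the proliferation sum of RhoB-/- replicate 3, 573.7, lies within the WT range.

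Some of the genes overlap others in GENCODE M21. Notch1, Notch3, Dll1, Dll4 and Hes5 each overlap a gene on the opposite strand, and Notch2 overlaps 2 gene models of uncertain status on its own strand. The methods give an orientation mode for the alignment, but whether genes were counted by strand is not given in the sources used here. Without strand, RNA of a gene and of its antisense partner cannot be told apart.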

How the data were processed

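The samples were IECs of 5 WT and 5 RhoB-/- mice, with the genotype and replicate number of each library taken from its label. The authors made TruSeq libraries, sequenced paired ends, used SeqPrep and Sickle for trimming, HISAT2 for alignment and StringTie for assembly, and estimated TPM with RSEM. The submitters' processing notes name GRCm38.p6 and edgeR, and tool versions are not given in the sources used here. The deposited TPM values were used as they stand. TPM is relative within each library and keeps no depth, so no counting error could be given and no count model was run, although the design had allowed for counts.

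Differences were fitted in R 4.3.3 with limma 3.58.1 (intensity trend) on the log2(TPM + 1) values of the 12870 genes whose mean TPM reached 1, with both genotypes and no covariate, and called at a Benjamini-Hochberg adjusted p below 0.05. Genes under the filter were compared by two-sided exact permutation tests over the 252 labelings of the libraries. The fit was tested on simulated data.

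The genes and the marker and pathway lists were chosen with earlier results of these data known. All 10 genes were described in full. From the lists, every gene with an adjusted p below 0.05 was named (at most 12 per list), and also Notch4, Dll3, Rbpj, Atoh1, Hey1, Hey2, Heyl, Nrarp, Lfng and Adam10. A further gene of the second list is not reported here. Marker lists were given by their sums, and further genes were named after their values had been seen. Similar genes were the 3 with the highest Pearson r for each of the 3 most abundant genes. Positions are from GENCODE M21 on GRCm38. Promoters are from RefSeq on GRCm38.p6.

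The alternatives were a pseudocount of 0.1, no filter or a filter at 0.1 TPM, a replicate block, quantile normalization, centring of each library, TPM rescaled without mitochondrially encoded genes, limma without the trend, the thresholds the study used (p below 0.05 before adjustment, with a fold over 1.5 on the log2(TPM + 1) scale or, added later, of mean TPM), and each library left out in turn. Both genotypes share the replicate numbers 1 to 5, but same-numbered libraries did not deviate together (correlations of -0.0874 to 0.0720 over 12870 genes), so the numbers were not taken to pair the mice.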

Additional observations from a re-analysis of the deposited data

Results flagged for a closer look

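Among 64 groups of 5 libraries examined for 32 genes, 8 had a library far from the other 4. The rule was a gap to the nearest library, as a share of the range, past the Dixon critical value of 0.71. For normally distributed values, chance alone would flag about 3. Values near 0, as for Notch3, Hes5, Dll3 and Heyl, may not be so distributed, so the 2 counts cannot show an excess. In RhoB-/- replicate 5 the TPM of Rhob was 110.87, against 0.09 to 0.57 in the other 4 RhoB-/- libraries. The same library had 1 for Notch2 (the other 4 had 0.62 to 0.72) and 0.25 for Notch3 (0.05 to 0.07). In RhoB-/- replicate 3 the TPM of Lfng was 6.84, against 3.61 to 4.53, and that of Dll3 was 0.20, against 0 to 0.05. In WT replicate 1 the TPM of Jag2 was 3.87, against 1.53 to 2.10, and that of Hes5 was 0.69, against 0 to 0.18. In WT replicate 5 the TPM of Heyl was 0.22, against 0.01 to 0.05.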

How the results depend on the processing

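Of the 10 genes, 4 were called lower as reported. The count was 1 with no filter on TPM, 2 with quantile normalization, 2 at the study's thresholds with folds on the log2(TPM + 1) scale (Hes1 and Hes6), 3 with folds of mean TPM (Notch1 too, an alternative chosen after seeing the data), 3 with centring, 2 with the replicate block described below, 4 under the other settings, and 1 to 4 with a library left out, lowest without WT replicate 5. It was 2 without WT replicate 2, WT replicate 4 or RhoB-/- replicate 1, 4 or 5. The study's thresholds set aside, Hes6 held in all 18 alternatives (limma adjusted p 0.00071 to 0.00921), Hes1 in 14 (0.00375 to 0.0584), and Notch1 (0.0110 to 0.0877) and Jag1 (0.0103 to 0.0821) in 9 each. Of the 41 Notch pathway genes, 7 were called as reported, 12 with quantile normalization, 16 with centring, 11 without mitochondrially encoded genes, 3 at the study's thresholds (5 with folds of mean TPM) and 2 to 8 with a library left out, lowest without RhoB-/- replicate 5. The secretory factors called were 5 as reported, 8 with no filter on TPM and 5 to 6 with a library left out. With quantile normalization, and also with centring, 6 were called, 1 of them higher. Signs that turned were those of Dll1 (0.0388 with quantile normalization, and -0.3214 to 0.0388 with a library left out, highest without WT replicate 2), Dll4 (0.0840 with quantile normalization, 0.0208 with centring) and Atoh1 (-0.0185 without mitochondrially encoded genes, and -0.0717 to 0.1102 with a library left out, negative without WT replicate 3 and without RhoB-/- replicate 3), none of them called. With the replicate number as a block, 2 of the 10 genes, 2 of the pathway genes and 5 of the secretory factors were called. The pairing is not supported by the design or by the correlations. The cause of these shifts was not tested. TPM gives no read depth, so what low genes such as Hes5 and Notch3 could show is not known.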

Other observations

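A pair of Notch pathway genes below the filter had every RhoB-/- library above every WT library. Dtx1, a Deltex ubiquitin ligase of the same family as Dtx4, had a TPM of 0.202 ± 0.0698 in WT against 1.13 ± 0.270 in RhoB-/- mice, and Mfng, a Fringe glycosyltransferase related to Lfng, 0.156 ± 0.0647 and 0.482 ± 0.124 (SD, n = 5 each). Each had an exact permutation p of 0.00794, the smallest that 5 against 5 allows, before any adjustment. Without RhoB-/- replicate 5 the p was again 0.00794 for each. Both were named after their values had been seen, from 13 pathway genes below the filter. Among tested genes 5.97% had every RhoB-/- library above every WT library. No such share was computed for genes below the filter, so how unusual the pair is cannot be said. Immune marker sums were also higher in all RhoB-/- libraries, and the part of those cells in these values was not tested.

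Below the filter, the enteroendocrine factors Insm1 and Rfx6 had every RhoB-/- library under every WT library. They were picked after their values had been seen, from 11 secretory factors below the filter. Such a separation held for 8.55% of tested genes, and no share was computed below the filter. The TPM of Insm1 was 1.4 ± 0.309 in WT against 0.598 ± 0.143 in RhoB-/- mice, and that of Rfx6 was 0.460 ± 0.145 and 0.200 ± 0.0424 (SD, n = 5 each, exact permutation p = 0.00794 for each, and 0.0159 and 0.00794 without RhoB-/- replicate 5). Among the enteroendocrine products, Insl5 had a TPM of 41.9 ± 13.8 in WT against 8.68 ± 4.09 in RhoB-/- mice (limma adjusted p = 0.000484), Pyy of 196.9 ± 67.0 and 80.3 ± 20.1 (0.00266), and Sct of 66.4 ± 20.6 and 87.9 ± 45.1 (0.433).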
